A study of Saccharomyces pastorianus with 12 samples.

Results

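The genes described are 10 regulators of the budding yeast cell cycle: the G1 cyclins CLN1, CLN2 and CLN3, the S-phase cyclins CLB5 and CLB6, the mitotic cyclins CLB1 and CLB2, the Cdk inhibitor SIC1, the polo kinase CDC5 and the transcription factor SWI5. They were chosen by gene symbol, with every copy of a symbol taken, which gave 22 gene copies of the 11312 in the deposited tables. CLN1 had 4 copies, CDC5 had 3, CLN2 had 1 and each of the other symbols had 2. The copies carry only a number, and which parent genome a copy comes from is not given in the sources used here.

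Messenger RNA was sequenced from SpIB1 and SpIB2, lager strains of the hybrid brewing yeast Saccharomyces pastorianus, to find genes behind a difference in maltose and maltotriose uptake between them. Both fermented wort at 16 °C, and polyA RNA was taken on day 5 and day 2. The groups were SpIB2 on day 5, SpIB2 on day 2, SpIB1 on day 5 and SpIB1 on day 2, with 3 libraries each and no treatment or engineered allele in the labels. Whether the libraries of a group are separate cultures is not in the labels, and the p-values therefore cover only the spread among libraries, which may be technical.

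In Saccharomyces cerevisiae, a single cyclin-dependent kinase, Cdc28, is switched through the cycle by its cyclins. Cln3 starts G1 exit and CLN1 and CLN2 transcription follows. Clb5 and Clb6 drive DNA replication once Sic1, their inhibitor, has been destroyed, and Clb1 and Clb2 drive mitosis. CLB1, CLB2, CDC5 and SWI5 are transcribed together in G2 and M phase, Cdc5 promotes mitotic exit, and Swi5 then enters the nucleus and switches on SIC1 and other early G1 genes.

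Library totals ran from 5133175 to 7922547 reads over the readable copies, and the 10 symbols together took 0.0278 to 0.151% of them. Log2 expression correlated at 0.967 to 0.989 between SpIB1 libraries of a group. In SpIB2, day 2 replicate 3 (r of 0.913 and 0.922 with its group) and day 5 replicate 1 (0.934 and 0.926) stood apart, against 0.961 and 0.977 for the other pair on each day. Values below are reads summed over the copies of a symbol, as reads scaled to a common library size by TMM (CPM), listed by replicate number. Fold changes are SpIB2 over SpIB1 or day 5 over day 2, on the log2 scale with a standard error, and adjusted p-values are from edgeR's quasi-likelihood test over all 6197 symbols or 10659 copies. All 10 symbols and 22 copies passed the filter on low counts. Scaling by library totals in place of TMM moved the median of all symbols by -0.70 for the strain difference on day 5, by -0.38 and 0.27 for the day effects in SpIB2 and SpIB1, by -0.65 for the difference of the day effects and by -0.05 for the strain difference on day 2. TMM values are therefore relative to the bulk of genes. No gene lengths were used, so levels are compared between groups and never between genes.

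On day 2, the mitotic genes CLB1, CLB2, CDC5 and SWI5 and the G1 cyclin CLN1 were higher in SpIB2 than in SpIB1, by 2.46-fold to 5.46-fold. These were 5 of 10 symbols, against 28.0% of all symbols tested, and 11 of 22 copies, against 35.3% of copies (10 higher, against 19.3% of copies, and CLN3_1 lower). On day 5, 6 of 10 symbols differed between the strains, against 55.1% of all symbols, and 11 of 22 copies, against 56.4% (7 higher, against 29.9%, and 4 lower, against 26.5%). With library totals the balance turned, to 1 copy higher and 10 lower and to 1 symbol higher and 5 lower. CLB2, SIC1 and SWI5 were higher and CLN2, CLN3 and CLB5 lower in SpIB2. Between day 5 and day 2, SpIB2 changed in 6 of 10 symbols, against 46.7%, and in 14 of 22 copies, against 45.3% (11 lower, against 23.5%, and 3 higher). CLN3, CLB1, CLB2, CDC5 and SWI5 fell and SIC1 rose. With library totals 0 copies and 0 symbols rose, and 11 copies and 5 symbols fell.

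In SpIB1, edgeR called 0 of 10 symbols between the days, against 3.92% of all symbols, with 4 at an unadjusted p under 0.05. DESeq2 called 1, CLN1. At the level of copies, 1 of 22, CLN1_2, rose and 0 fell, against 0.863% and 2.61% of copies, or 3.47% in either direction. The change with day differed between the strains for 3 of 10 symbols, CLN2, SIC1 and CDC5, against 28.2%, and for 5 of 22 copies, against 26.4%. Of those copies 2 had a positive and 3 a negative difference, and with library totals 0 and 11 did. The median log2 fold change of the 10 symbols was 0.91 for the strain difference on day 2 (all symbols 0.009), 0.16 on day 5 (0.04), -0.82 for the day effect in SpIB2 (-0.08), -0.05 in SpIB1 (-0.0005) and -1.05 for the difference of the day effects (-0.07). Comparisons that share a group are not independent of one another. In bulk RNA, fewer cells in a phase of the cycle and less of a transcript per cell cannot be told apart.

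**Figure D1:**
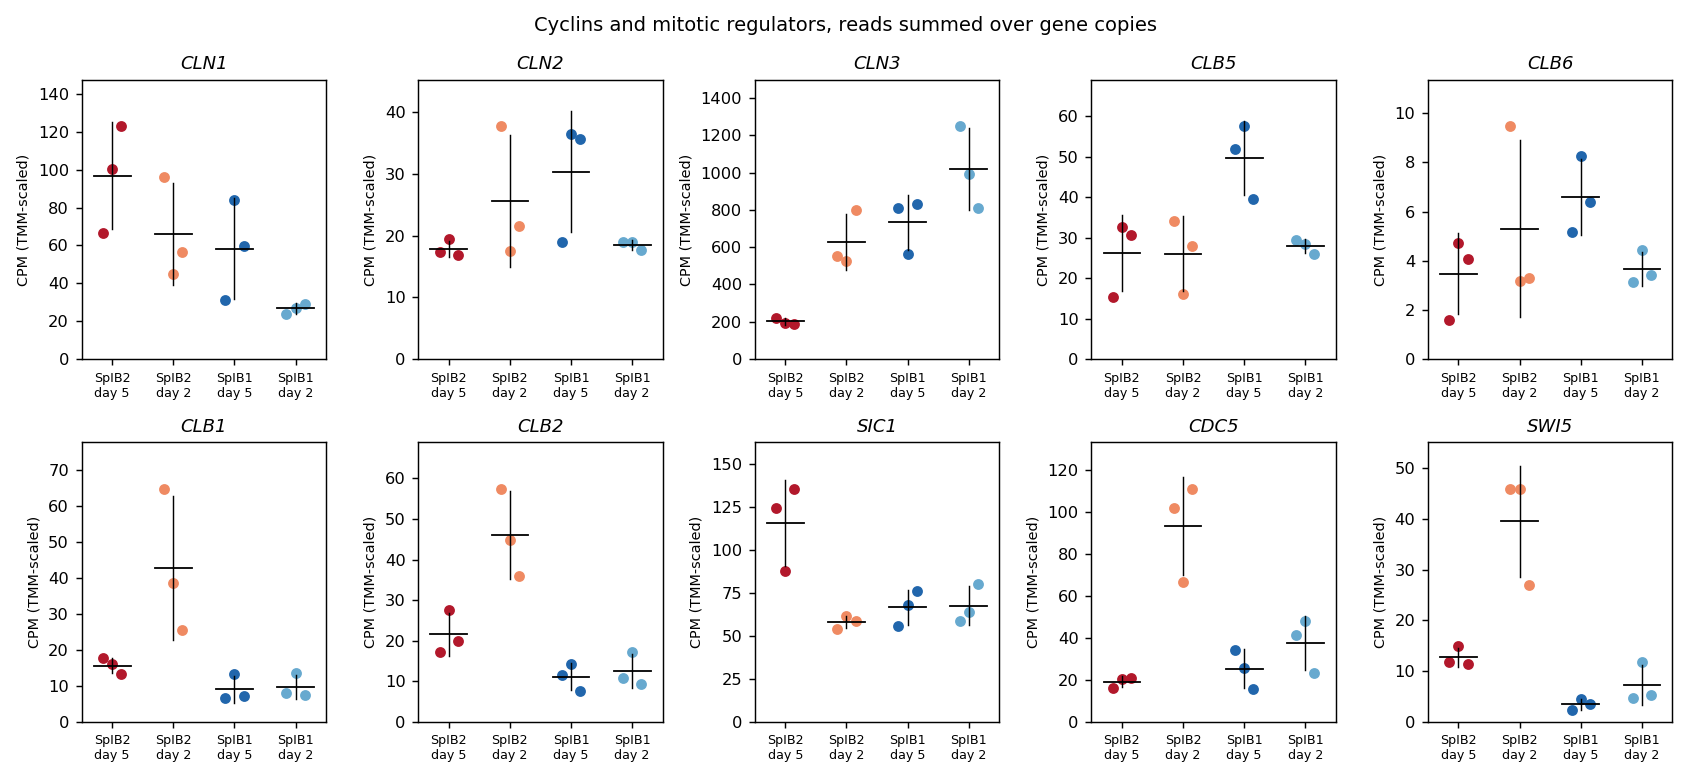
Level of each of the 10 symbols in each library, in TMM-scaled CPM on a linear axis that starts at 0, with reads summed over copies. Points are libraries, horizontal lines are means and vertical lines are 1 SD (n = 3 per group). CLB1, CLB2, CDC5 and SWI5 are highest in SpIB2 on day 2, SIC1 is highest and CLN3 lowest in SpIB2 on day 5.

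**Figure D2:**
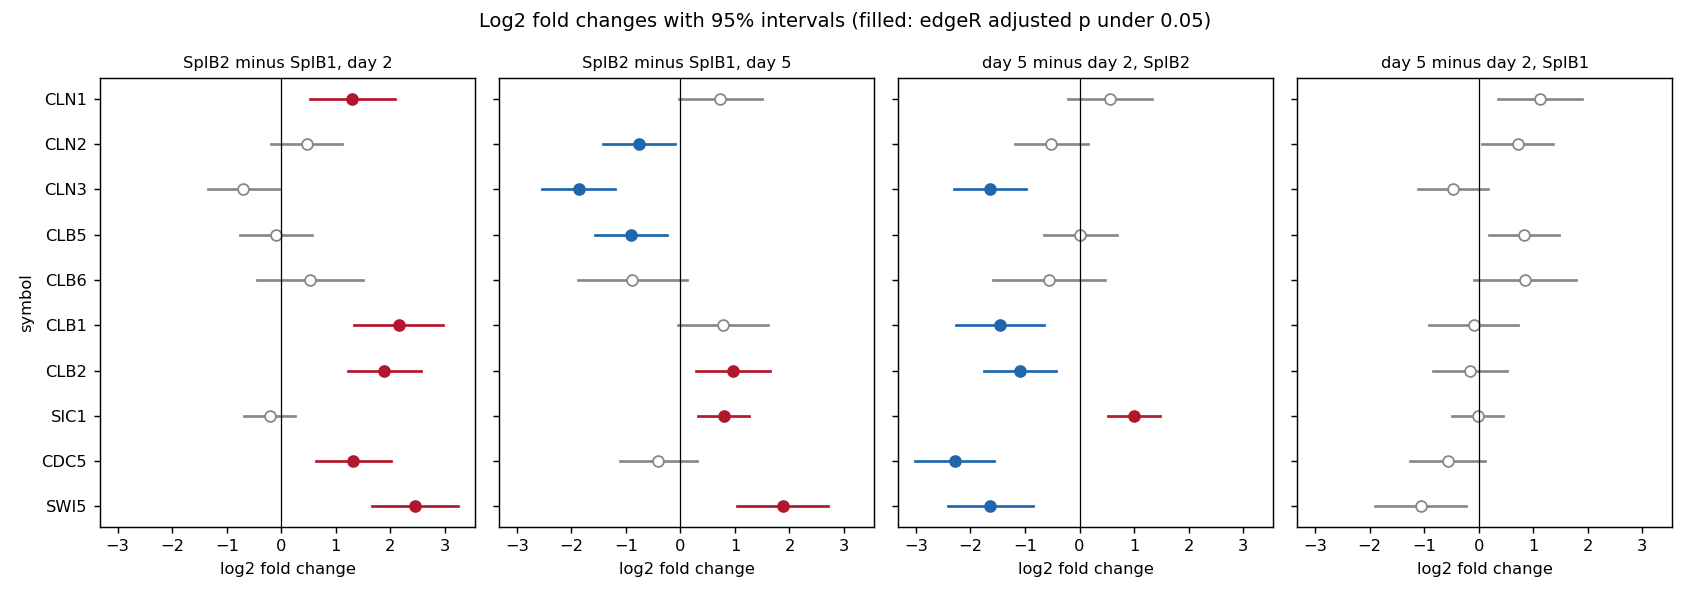
Log2 fold change of each symbol with its 95% interval in 4 comparisons, strain differences on the left and day effects on the right. Filled points passed an edgeR adjusted p of 0.05, red for higher and blue for lower, and open grey points did not. Open points make up the whole of the day comparison in SpIB1.

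Among the G1 cyclins, CLN3, whose product starts the passage out of G1, was at its lowest in SpIB2 on day 5. In SpIB2 it stood at 222, 192 and 190.0 CPM on day 5 and at 551, 528 and 802 CPM on day 2. In SpIB1 it stood at 807, 563 and 829 CPM on day 5 and at 1248, 991 and 811 CPM on day 2. The 3 SpIB2 libraries of day 5 lay below the other 9. CLN3 was 3.64-fold lower in SpIB2 than in SpIB1 on day 5 (log2 -1.86 ± 0.31, edgeR adjusted p = 3e-04), and in SpIB2 it fell between the days by 1.64 ± 0.31 on the log2 scale (edgeR adjusted p = 0.0012). On day 2 the strain difference was -0.70 ± 0.30 and missed the threshold (edgeR adjusted p = 0.097), although the libraries did not overlap. It passed without SpIB2 day 2 replicate 3 (-0.91, adjusted p = 0.046) and without both SpIB2 libraries that stood apart (-0.89, adjusted p = 0.016).

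The copies of CLN3 did not move equally. CLN3_1 stood at 17.9, 18.6 and 15.2 CPM in SpIB2 on day 5 and at 72.2, 85.7 and 127 CPM in SpIB2 on day 2. The SpIB1 values were 173, 130.4 and 152 CPM on day 5 and at 402, 345 and 236 CPM on day 2. No library of one group overlapped another group. CLN3_1 was lower in SpIB2 on day 5 by 8.80-fold (log2 -3.14 ± 0.33, edgeR adjusted p = 4.9e-06) and on day 2 by 3.44-fold (-1.78 ± 0.31, edgeR adjusted p = 0.00068).

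CLN3_2 stood at 220.4, 175 and 180.1 CPM in SpIB2 on day 5, against 620.5, 427 and 667 CPM in SpIB1 on day 5, and was 2.98-fold lower (log2 -1.58 ± 0.33, edgeR adjusted p = 0.0011). On day 2 the ranges overlapped, at 437 to 660 CPM in SpIB2 against 572 to 834 CPM in SpIB1. Both copies fell between the days in SpIB2, with log2 fold changes of -2.47 ± 0.32 for CLN3_1 and -1.45 ± 0.33 for CLN3_2 (edgeR adjusted p = 0.00012 and 0.0036).

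The share of CLN3 reads counted for CLN3_1 does not depend on library scaling. It was 7.49, 9.64 and 7.78% in SpIB2 on day 5 and 13.2, 16.4 and 16.2% in SpIB2 on day 2. In SpIB1 it was 21.8, 23.4 and 18.5% on day 5 and 32.5, 35.2 and 29.2% on day 2. The groups did not overlap, and the strain difference averaged -15.0 percentage points over both days (exact permutation of strain within day, two-sided, p = 0.005, the smallest the 400 assignments allow, and adjusted p = 0.011 over 4134 symbols). Over those 4134 symbols the median absolute strain difference was 12.4 points.

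CLN1, which with CLN2 drives bud emergence and entry into S phase, had the opposite strain difference. In SpIB2 it stood at 66.8, 100.5 and 123 CPM on day 5 and at 96.2, 45.0 and 56.7 CPM on day 2. SpIB1 libraries had 31.2, 84.2 and 59.8 CPM on day 5 and at 23.8, 27.2 and 29.3 CPM on day 2. SpIB1 on day 2 was below every other library. CLN1 was 2.46-fold higher in SpIB2 on day 2 (log2 1.30 ± 0.36, edgeR adjusted p = 0.019). That call was lost with SpIB2 day 2 replicate 1 left out (0.93, adjusted p = 0.10), with SpIB1 day 2 replicate 1 (1.18, 0.088) or 2 (1.31, 0.059) left out, and under scaling by library totals (1.26, 0.057).

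On day 5 the strains overlapped for CLN1 summed (0.73 ± 0.36, edgeR adjusted p = 0.096), and the day effect in SpIB1 was 1.13 ± 0.36 (edgeR adjusted p = 0.10). The first passed with SpIB2 day 5 replicate 1 (0.93, adjusted p = 0.048) or SpIB1 day 5 replicate 2 (1.05, adjusted p = 0.036) left out, and the second without SpIB1 day 5 replicate 1 (1.47, adjusted p = 0.037).

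Its 4 copies differed. CLN1_1 stood at 48.8, 72.7 and 88.5 CPM in SpIB2 on day 5, against 17.1, 36.4 and 21.5 CPM in SpIB1 on day 5, and was 2.80-fold higher (log2 1.49 ± 0.35, edgeR adjusted p = 0.0026). It took 67.9 to 71.9% of CLN1 reads in SpIB2 on day 5 and 53.7 to 57.0% in SpIB2 on day 2, against 36.4 to 55.9% in SpIB1 on day 5 and 46.2 to 57.3% in SpIB1 on day 2 (exact permutation within day, p = 0.02, adjusted p = 0.033). CLN1_3 was 3.21-fold higher in SpIB2 on day 5 (log2 1.68 ± 0.44, edgeR adjusted p = 0.0048), with overlapping libraries, at 5.15 to 18.3 CPM in SpIB2 against 2.86 to 5.23 CPM in SpIB1. With library totals both calls were lost (0.78 for CLN1_1, adjusted p = 0.13, and 1.02 for CLN1_3, adjusted p = 0.12). The other copies pointed the other way on day 5 and missed the threshold, with overlapping libraries. CLN1_2 had a log2 fold change of -0.96 ± 0.44 (edgeR adjusted p = 0.076) and CLN1_4 of -0.55 ± 0.46 (edgeR adjusted p = 0.33). CLN1_2 stood at 5.08, 19.8 and 15.9 CPM in SpIB1 on day 5, against 3.83, 4.96 and 2.69 CPM in SpIB1 on day 2 (log2 1.83 ± 0.44, edgeR adjusted p = 0.036). That call was lost when any 1 of SpIB1 day 2 replicates 1 to 3 or of SpIB1 day 5 replicates 2 and 3 was left out (log2 1.5 to 2.06, adjusted p up to 0.18). The day effect of CLN1_4 in SpIB1 was 1.83 ± 0.48 and missed the threshold (edgeR adjusted p = 0.052).

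CLN2, a single copy here, stood at 17.3, 19.4 and 16.9 CPM in SpIB2 on day 5 and at 37.7, 17.5 and 21.6 CPM in SpIB2 on day 2. In SpIB1 it stood at 19.0, 36.4 and 35.6 CPM on day 5 and at 18.9, 18.9 and 17.6 CPM on day 2. High libraries were SpIB2 day 2 replicate 1 and SpIB1 day 5 replicates 2 and 3. CLN2 was lower in SpIB2 on day 5 (log2 -0.77 ± 0.31, edgeR adjusted p = 0.048), with libraries that overlapped, and its day effects differed by -1.23 ± 0.43 (edgeR adjusted p = 0.047). The call on day 5 was lost without any 1 of the 3 SpIB2 libraries of day 5, SpIB1 day 5 replicates 2 or 3 or SpIB1 day 2 replicate 2 (adjusted p of 0.064 to 0.12). It was also lost with DESeq2 (adjusted p = 0.053), with median-ratio scaling (0.058) and at a mean count of at least 50 (0.051). The difference of the day effects was lost without any 1 library except SpIB1 day 5 replicate 1 and SpIB2 day 2 replicates 2 and 3 (adjusted p of 0.0541 to 0.12). In the test over copies, where CLN2 has the same reads, neither passed (-0.70, edgeR adjusted p = 0.064, and -1.16, edgeR adjusted p = 0.059).

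Reads of CLN1 and CLN2 per read of CLN3 were 0.379, 0.624 and 0.736 in SpIB2 on day 5 and 0.243, 0.118 and 0.0977 in SpIB2 on day 2. In SpIB1 they were 0.0622, 0.214 and 0.115 on day 5 and 0.0342, 0.0465 and 0.0578 on day 2. SpIB2 on day 5 was above all other libraries and SpIB1 on day 2 below all others. This ratio, and those of SIC1 and of CLB5 and CLB6 reads given below, were chosen after the values were seen and carry no test. They are free of library scaling but not corrected for gene length, so they compare libraries only.

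Of the S-phase cyclins, CLB5 was lower in SpIB2 on day 5. It stood at 15.4, 32.5 and 30.6 CPM in SpIB2 on day 5 and at 34.1, 16.1 and 28.0 CPM in SpIB2 on day 2. The SpIB1 values were 52.0, 57.5 and 39.6 CPM on day 5 and at 29.3, 28.4 and 26.0 CPM on day 2. SpIB1 on day 5 was above all other libraries. CLB5 was 1.88-fold lower in SpIB2 on day 5 (log2 -0.91 ± 0.31, edgeR adjusted p = 0.022). The call was lost without SpIB2 day 5 replicate 1 (-0.66, adjusted p = 0.064) and without SpIB1 day 5 replicate 2 (-0.84, adjusted p = 0.060). The day effect in SpIB1 was 0.83 ± 0.30 (edgeR adjusted p = 0.15), with libraries that did not overlap. It passed with only the 6 libraries compared (0.85, adjusted p = 0.009) and without both SpIB2 libraries that stood apart (0.86, adjusted p = 0.027).

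CLB6, the other S-phase cyclin, had few reads: 1.60, 4.74 and 4.07 CPM in SpIB2 on day 5 and 9.47, 3.17 and 3.29 CPM in SpIB2 on day 2. In SpIB1 it had 5.17, 8.25 and 6.40 CPM on day 5 and 3.13, 4.43 and 3.41 CPM on day 2. It passed no test in the fit of all 12 libraries. On day 5 the strains did not overlap (log2 -0.88 ± 0.46, edgeR adjusted p = 0.12), and with library totals the difference passed (-1.53, adjusted p = 0.026). CLB5_1 carried 78.0 to 93.8% of CLB5 reads over the 12 libraries, with no strain difference past the threshold (-1.58 points, exact permutation within day, p = 0.51, adjusted p = 0.56).

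The mitotic cyclins were highest in SpIB2 on day 2. CLB1 stood at 17.6, 15.9 and 13.3 CPM in SpIB2 on day 5 and at 64.7, 38.4 and 25.4 CPM in SpIB2 on day 2. SpIB1 libraries had 6.56, 13.3 and 7.23 CPM on day 5 and at 7.89, 13.5 and 7.54 CPM on day 2. Every SpIB2 library of day 2 was above every other library. CLB1 was 4.44-fold higher in SpIB2 on day 2 (log2 2.15 ± 0.38, edgeR adjusted p = 0.0015), and in SpIB2 it fell between the days by 1.46 ± 0.37 on the log2 scale (edgeR adjusted p = 0.0071). On day 5 the strain difference was 0.78 ± 0.38 (edgeR adjusted p = 0.096), and it passed without SpIB1 day 5 replicate 2 (1.13, adjusted p = 0.031).

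CLB2, the main mitotic cyclin in Saccharomyces cerevisiae, stood at 17.3, 27.6 and 19.9 CPM in SpIB2 on day 5 and at 57.4, 44.8 and 36.0 CPM in SpIB2 on day 2. In SpIB1 it stood at 11.6, 14.2 and 7.64 CPM on day 5 and at 10.9, 17.1 and 9.24 CPM on day 2. The strains did not overlap on either day. CLB2 was 3.71-fold higher in SpIB2 on day 2 (log2 1.89 ± 0.31, edgeR adjusted p = 0.00098) and 1.95-fold higher on day 5 (0.96 ± 0.31, edgeR adjusted p = 0.019). In SpIB2 it fell between the days by 1.09 ± 0.31 on the log2 scale (edgeR adjusted p = 0.012). With SpIB2 day 5 replicate 2 (0.74, adjusted p = 0.083) or SpIB1 day 5 replicate 3 (0.71, 0.088) left out, the call on day 5 was lost, as it was under scaling by library totals (0.29, 0.55).

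All 4 copies of the mitotic cyclins were higher in SpIB2 on day 2. CLB1_1 stood at 28.3, 16.4 and 8.62 CPM in SpIB2 on day 2, against 1.77, 2.63 and 2.55 CPM in SpIB1 on day 2 (7.60-fold, log2 2.93 ± 0.53, edgeR adjusted p = 0.0011). CLB2_1 was 5.03-fold, CLB1_2 3.39-fold and CLB2_2 2.99-fold higher (edgeR adjusted p of 0.0027, 0.0025 and 0.00084). The share of reads counted for the first copy differed between the strains by 13.4 points for CLB1 and 12.2 points for CLB2, without passing (exact permutation within day, p = 0.055 and 0.035, adjusted p = 0.079 and 0.054). SpIB1 on day 5 alone spread from 13.5 to 43.0% for CLB1_1 and from 13 to 42.6% for CLB2_1.

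CLB5 and CLB6 reads per read of CLB1 and CLB2 were 0.486 to 1.05 in SpIB2 on day 5, 0.231 to 0.510 in SpIB2 on day 2, 2.39 to 3.15 in SpIB1 on day 5 and 1.07 to 1.75 in SpIB1 on day 2. Every SpIB2 library was thus below every SpIB1 library.

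SIC1 encodes the inhibitor that holds Clb-bound Cdc28 inactive in G1, and it moved opposite to the mitotic genes in SpIB2. It stood at 124, 87.4 and 135 CPM in SpIB2 on day 5 and at 54.1, 61.5 and 58.3 CPM in SpIB2 on day 2. The SpIB1 values were 55.9, 67.6 and 76.2 CPM on day 5 and at 58.4, 63.5 and 80.2 CPM on day 2. SpIB2 on day 5 was above all other libraries on the TMM scale. The TMM factor of SpIB2 day 5 replicate 1 was 0.546, against 0.873 and 0.91 for replicates 2 and 3. SIC1 was 1.74-fold higher in SpIB2 on day 5 (log2 0.80 ± 0.22, edgeR adjusted p = 0.0076), rose between the days in SpIB2 (0.99 ± 0.22, edgeR adjusted p = 0.0032), and its day effects differed by 1.01 ± 0.31 (edgeR adjusted p = 0.027). With library totals none of these passed, at 0.09, 0.60 and 0.35 (adjusted p of 0.79, 0.067 and 0.44). Without SpIB1 day 5 replicate 1 the strain difference on day 5 was 0.64 (adjusted p = 0.056) and the difference of the day effects 0.88 (adjusted p = 0.080). The difference of the day effects was also lost when SpIB2 day 2 replicate 1, SpIB1 day 5 replicate 2, or SpIB1 day 2 replicate 2 or 3 was left out (0.85 to 1.05, adjusted p of 0.0502 to 0.089).

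Both copies of SIC1 rose between the days in SpIB2, SIC1_1 by 1.15 ± 0.26 and SIC1_2 by 0.97 ± 0.23 on the log2 scale (edgeR adjusted p = 0.0035 and 0.0047). On day 5 SIC1_2 was higher in SpIB2, at 50.8, 41.8 and 63.6 CPM in SpIB2 against 16.0, 20.8 and 24.3 CPM in SpIB1 (2.56-fold, log2 1.35 ± 0.23, edgeR adjusted p = 0.00025), and SIC1_1 missed the threshold (log2 0.58 ± 0.25, edgeR adjusted p = 0.066). With library totals these 3 calls were lost: the day effects were 0.66 for SIC1_1 (adjusted p = 0.053) and 0.53 for SIC1_2 (adjusted p = 0.15), and the strain difference of SIC1_2 was 0.60 (adjusted p = 0.09). SIC1_1 took 61.9, 52.5 and 54.2% of SIC1 reads in SpIB2 on day 5 and 49.8, 57.6 and 52.4% in SpIB2 on day 2. In SpIB1 it took 70.9, 68.9 and 67.8% on day 5 and 67.1, 67.7 and 69.1% on day 2. All 6 SpIB2 libraries lay below all 6 SpIB1 libraries (-13.9 points, exact permutation within day, p = 0.005, adjusted p = 0.011).

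SIC1 reads per read of CLB1 and CLB2 were 3.56, 2.01 and 4.07 in SpIB2 on day 5 and 0.443, 0.739 and 0.949 in SpIB2 on day 2. In SpIB1 they were 3.08, 2.46 and 5.13 on day 5 and 3.11, 2.08 and 4.78 on day 2. SpIB2 on day 2 lay below the other groups, which overlapped one another.

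**Figure D3:**
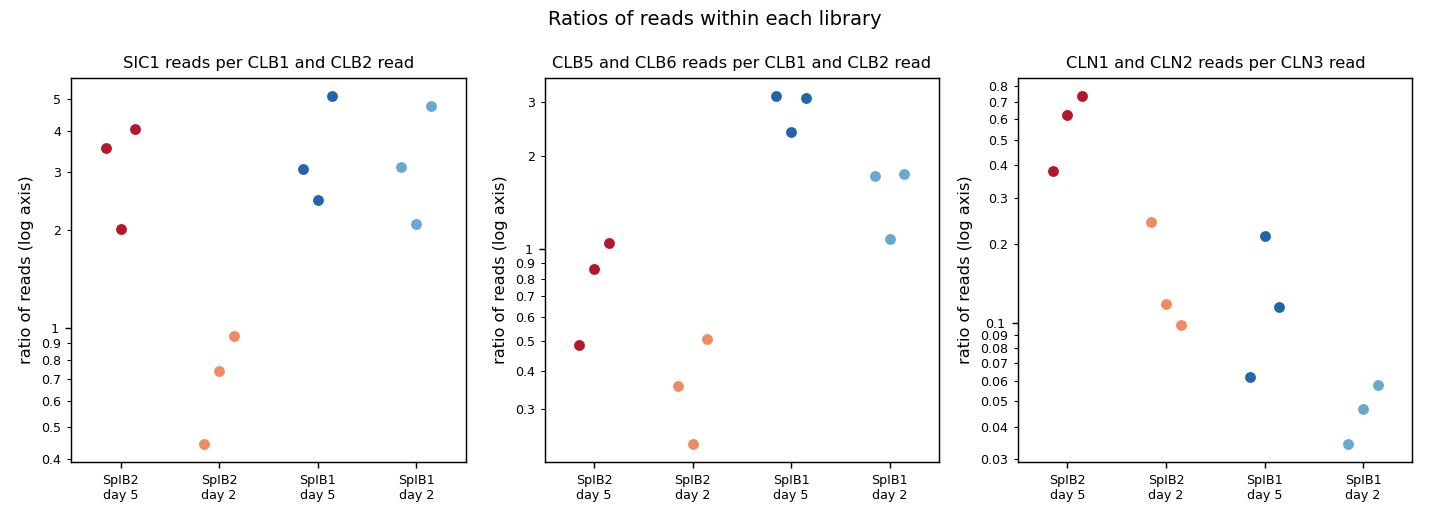
Reads of one set of symbols per read of another in each library, on log axes, for SIC1 against CLB1 and CLB2, CLB5 and CLB6 against CLB1 and CLB2, and CLN1 and CLN2 against CLN3. Points are single libraries. The left panel shows SpIB2 on day 2 at 0.443 to 0.949, below all other libraries, and the right panel shows SpIB2 on day 5 at 0.379 to 0.736, above all others.

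CDC5, the polo kinase that promotes mitotic exit, had the largest day effect of the 10 symbols. It stood at 16.0, 20.2 and 20.8 CPM in SpIB2 on day 5 and at 102, 66.7 and 111 CPM in SpIB2 on day 2. SpIB1 libraries had 34.3, 25.8 and 15.8 CPM on day 5 and at 41.1, 47.9 and 23.0 CPM on day 2. SpIB2 on day 2 was above all other libraries. CDC5 fell 4.88-fold between the days in SpIB2 (log2 -2.29 ± 0.34, edgeR adjusted p = 0.00027), and was 2.50-fold higher in SpIB2 on day 2 (1.32 ± 0.32, edgeR adjusted p = 0.0096). The day effects differed by -1.73 ± 0.46 (edgeR adjusted p = 0.016), and this call held in all 20 alternatives (adjusted p up to 0.043). On day 5 the strains overlapped (-0.41 ± 0.33, edgeR adjusted p = 0.31), and with library totals CDC5 was lower in SpIB2 (-1.08, adjusted p = 0.028).

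All 3 copies of CDC5 fell between the days in SpIB2, with log2 fold changes of -2.84 ± 0.48 for CDC5_1, -1.98 ± 0.36 for CDC5_2 and -2.24 ± 0.37 for CDC5_3 (edgeR adjusted p = 0.00056, 0.0010 and 0.00050). CDC5_3 stood at 12.4, 14.3 and 18.5 CPM in SpIB2 on day 5 and at 76.7, 49.7 and 88.6 CPM in SpIB2 on day 2. On day 2 CDC5_3 and CDC5_1 were higher in SpIB2 (log2 1.60 ± 0.35 and 0.98 ± 0.35, edgeR adjusted p = 0.0035 and 0.045). CDC5_2 missed the threshold (0.51 ± 0.32, edgeR adjusted p = 0.22). On day 5 only CDC5_1 passed, lower in SpIB2 (-1.41 ± 0.51, edgeR adjusted p = 0.030). Over 20 alternatives the CDC5_1 call was lost in 8 on day 2 and in 5 on day 5. CDC5_1 held 2.06 to 4.26% of CDC5 reads in SpIB2 on day 5 and 3.81 to 6.43% in SpIB2 on day 2, against 6.62 to 8.50% in SpIB1 on day 5 and 6.16 to 8.03% in SpIB1 on day 2 (exact permutation within day, p = 0.01, adjusted p = 0.019). This copy had only 2, 4 and 2 reads in the SpIB2 libraries of day 5, so its share and fold changes there rest on few reads.

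SWI5 had the largest strain difference of the 10 symbols on day 2. It stood at 11.8, 14.9 and 11.4 CPM in SpIB2 on day 5 and at 45.9, 45.9 and 26.9 CPM in SpIB2 on day 2. In SpIB1 it stood at 2.27, 4.51 and 3.51 CPM on day 5 and at 4.62, 11.8 and 5.26 CPM on day 2. Within each day, every SpIB2 library was above every SpIB1 library. SWI5 was 5.46-fold higher in SpIB2 on day 2 (log2 2.45 ± 0.37, edgeR adjusted p = 0.00055) and 3.67-fold higher on day 5 (1.88 ± 0.39, edgeR adjusted p = 0.0014). In SpIB2 it fell between the days by 1.64 ± 0.36 on the log2 scale (edgeR adjusted p = 0.0032). In SpIB1 the day effect was -1.06 ± 0.39 (edgeR adjusted p = 0.15), with libraries that did not overlap, and the day effects differed by -0.57 ± 0.53 (edgeR adjusted p = 0.42).

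SWI5_2 was 6.33-fold higher in SpIB2 on day 2 and 4.43-fold higher on day 5 (edgeR adjusted p = 8.4e-05 and 0.00038), and SWI5_1 was 3.78-fold and 2.7-fold higher (edgeR adjusted p = 0.0047 and 0.031). On day 5 the SWI5_1 call was lost with library totals (log2 0.66, adjusted p = 0.32) and when SpIB2 day 5 replicate 1 (1.41, 0.059) or 2 (1.16, 0.13), or SpIB1 day 5 replicate 1 (1.16, 0.10) or 3 (1.23, 0.094), was left out. SWI5_1 took 18.9 to 29.0% of SWI5 reads in SpIB2 on day 5 and 22.1 to 25.8% in SpIB2 on day 2, against 26.5 to 43.9% in SpIB1 on day 5 and 29.0 to 43.2% in SpIB1 on day 2 (exact permutation within day, p = 0.015, adjusted p = 0.026).

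The copy share thus differed between the strains for 5 of the 8 symbols with enough reads (CLN1, CLN3, SIC1, CDC5 and SWI5), against 64.1% of the 4134 symbols tested in the same way, so these 8 are close to the rest of the genes. Leaving out 1 library gave 3 to 6 of 8, and CLN3, SIC1 and CDC5 passed each time. CLN1 was lost without SpIB1 day 2 replicate 1 or 2 or any one SpIB2 library of day 5, and SWI5 was lost when SpIB2 day 5 replicate 3 or SpIB1 day 5 replicate 2 was left out. With SpIB1 day 5 replicate 2 or 3 left out CLB1 passed, and with replicate 2 left out so did CLB2. Without both SpIB2 libraries that stood apart, CLN3, CLB5, SIC1 and CDC5 passed. How the authors treated reads that match several copies is not given in the sources used here, so values of single copies are uncertain.

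**Figure D4:**
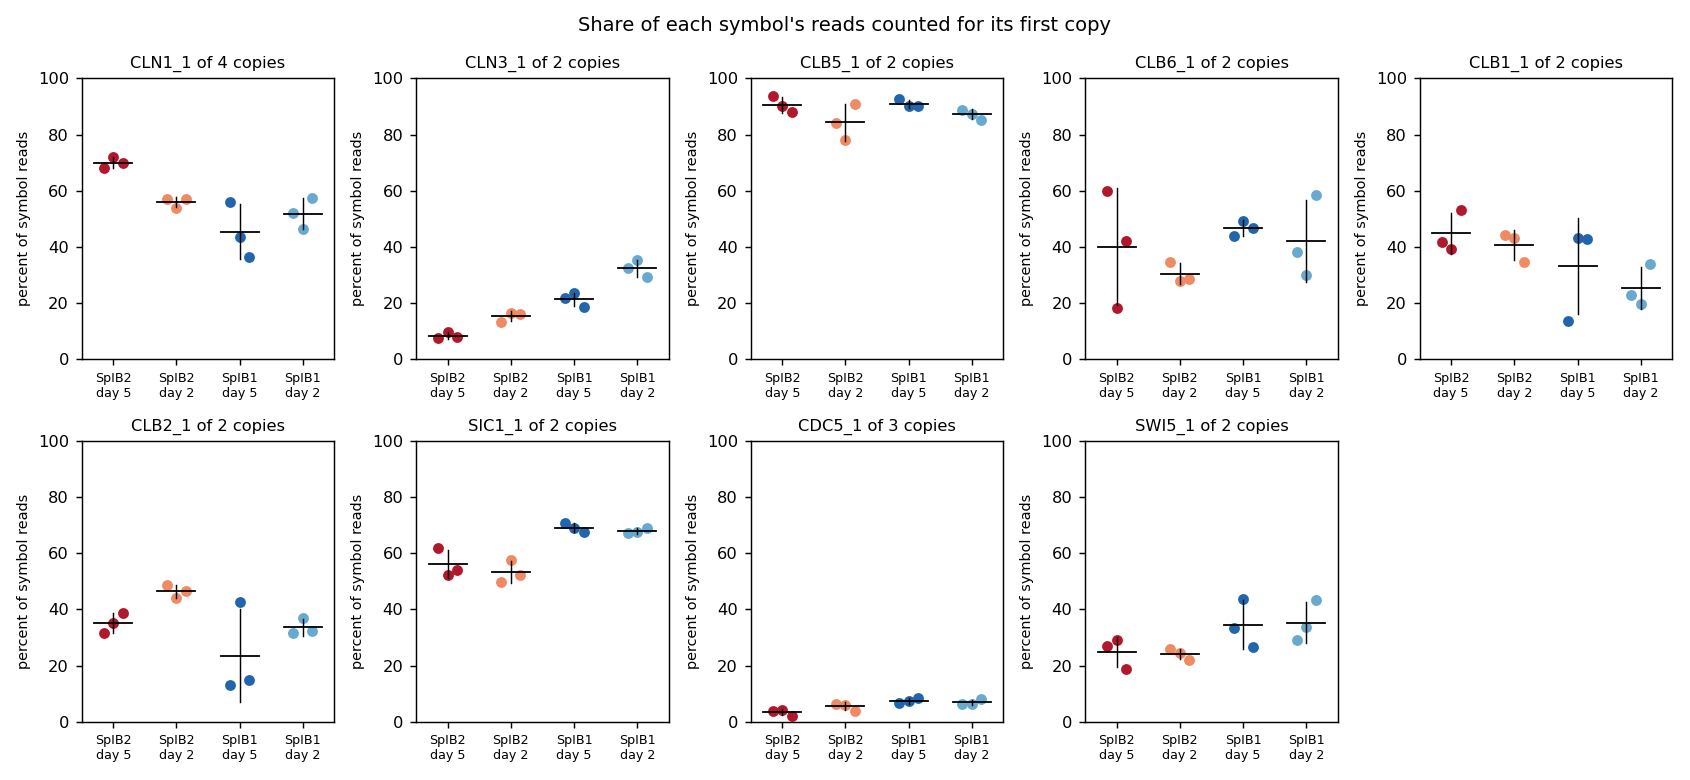
Percent of a symbol's reads counted for its first copy in each library, for the 9 symbols with 2 or more copies, on an axis of 0 to 100 percent. Points are libraries, horizontal lines are means and vertical lines are 1 SD (n = 3 per group). CLN3_1 falls into 4 separate groups, from 7.49 to 9.64% in SpIB2 on day 5 up to 29.2 to 35.2% in SpIB1 on day 2, and SIC1_1 is lower in every SpIB2 library than in every SpIB1 library.

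Over the 12 libraries, the log2 levels of CLB1, CLB2 and SWI5 correlated at 0.942 to 0.953 with one another, and CDC5 correlated with them at 0.633 to 0.694. CLN3 and SIC1 correlated at -0.786, and SIC1 and CDC5 at -0.722. The 12 points share the 4 groups and the scaling, so these are descriptions. Among 4607 symbols of at least 10 CPM, the nearest to SWI5 were CHS2, the chitin synthase of the primary septum (r = 0.971), BMH1, a 14-3-3 protein (0.958), and HOF1, a cytokinesis protein (0.929). CHS2 was also second for CLB1 (0.947), after ADE13 of purine synthesis (0.958) and before SUB2 (0.9385). Nearest to CLN3 was SIN4, a Mediator subunit (0.977), nearest to CLB5 was CDC7, the kinase that fires replication origins (0.946), nearest to CLN2 was SWE1, the kinase that inhibits Clb-bound Cdc28 (0.854), and nearest to SIC1 were MRP1 (0.967) and RSM7 (0.961), of the small subunit of the mitochondrial ribosome. The nearest symbols to the others were XPT1 for CLN1 (0.963), AIM20 for CLB2 (0.950), AVT2 for CLB6 (0.946) and ECM31 for CDC5 (0.938). Next were PMU1 (0.948) and CAF16 (0.938) for CLB2, and AMD2 (0.924) and RNA1 (0.914) for CDC5.

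Lists of other cell cycle genes and of meiosis and mating markers, 105 symbols in all, were counted beside the 10. On day 2, 19 of the 105 were higher and 16 lower in SpIB2, against 14.9% and 13.1% of all symbols tested. On day 5, 20 were higher and 42 lower, against 28.4% and 26.7%. Between the days 16 rose and 30 fell in SpIB2, against 22.2% and 24.5%, and 4 rose and 0 fell in SpIB1, against 0.904% and 3.02%. The median log2 fold change of the 105 was 0.05, -0.31, -0.27 and 0.07 in the same order of comparisons.

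The G2/M cluster holds genes transcribed with CLB2 in Saccharomyces cerevisiae. In SpIB2 on day 2, 8 of 14 were higher and 1 lower, against 14.9% and 13.1% of all symbols tested, with a median of 0.85. SPO12, a regulator of mitotic exit, averaged 67.5 ± 15.2 CPM in SpIB2 against 15.4 ± 3.93 CPM in SpIB1 (SD, n = 3 each), and CHS2 averaged 44.2 ± 11.9 CPM in SpIB2 against 11 ± 1.78 CPM in SpIB1 (edgeR adjusted p = 5.5e-05 and 0.00025). BUD3, a bud site protein, was lower, at 17.0 ± 2.83 CPM in SpIB2 against 66.8 ± 5.24 CPM in SpIB1 (edgeR adjusted p = 2.3e-05). Between the days in SpIB2, 8 of 14 fell, among them KIN3, a protein kinase (log2 -2.11 ± 0.38), and ALK1, a haspin-type kinase (-1.99 ± 0.39), and 1 rose, HST3, a histone deacetylase named here after its values were seen (1.0 ± 0.28; edgeR adjusted p = 0.00093, 0.0014 and 0.012). Of all symbols tested, 22.2% rose and 24.5% fell between the days in SpIB2. On day 5, 5 of 14 were higher and 5 lower in SpIB2, against 28.4% and 26.7%, and with library totals 1 was higher and 5 lower.

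G2/M transcription factors and G1/S regulators were counted next. Of the G2/M transcription factors MCM1, FKH1, FKH2 and NDD1, FKH2 was lower in SpIB2 on day 2 (46.2 ± 2.74 CPM in SpIB2 against 85.7 ± 9.25 CPM in SpIB1, edgeR adjusted p = 0.0038). On day 5 FKH1 and FKH2 were lower, FKH1 at 8.01 ± 4.73 CPM in SpIB2 against 36.4 ± 0.352 CPM in SpIB1 (SD, n = 3 each, edgeR adjusted p = 0.00033). Of 11 G1/S regulators, 3 were higher and 1 lower in SpIB2 on day 2, and 3 were higher and 4 lower on day 5. The shares of all symbols tested were 14.9% and 13.1% on day 2 and 28.4% and 26.7% on day 5. NRM1 was higher in SpIB2 on both days (log2 1.41 ± 0.42 and 1.22 ± 0.41, edgeR adjusted p = 0.024 and 0.022). STB1 was lower on day 5 (log2 -1.305 ± 0.20, edgeR adjusted p = 0.00017). CDC28, the kinase that all of these cyclins bind, stood at 40.4 ± 11 CPM in SpIB2 against 23.0 ± 1.48 CPM in SpIB1 on day 2 (log2 0.81 ± 0.25, edgeR adjusted p = 0.029), and between the days it fell in SpIB2 by 0.82 ± 0.25 (edgeR adjusted p = 0.019). SWI6, a subunit of the factors that transcribe CLN1, CLN2, CLB5 and CLB6, was lower in SpIB2 on day 5 (33.5 ± 3.70 CPM in SpIB2 against 63.4 ± 4.85 CPM in SpIB1, edgeR adjusted p = 0.00088).

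Of 15 G1/S transcription targets, 1 was higher and 6 lower in SpIB2 on day 5, against 28.4% and 26.7% of all symbols tested. On that day the DNA polymerase subunit POL1 stood at 18.2 ± 3.65 CPM in SpIB2 against 64.2 ± 2.95 CPM in SpIB1 (edgeR adjusted p = 3.4e-05). Between the days in SpIB1, 3 rose, against 0.904% of all symbols tested. Among them were PCL1, a cyclin of the Pho85 kinase (log2 1.76 ± 0.43), and RAD27, a flap endonuclease (1.22 ± 0.32, edgeR adjusted p = 0.041 and 0.048).

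The SCF ubiquitin ligase marks Sic1 and the G1 cyclins for destruction. Of its 6 symbols, 3 were higher in SpIB2 on day 5, against 28.4% of all symbols tested. SKP1 averaged 649 ± 155 CPM in SpIB2 against 203 ± 14.5 CPM in SpIB1, CDC34 669 ± 345 CPM in SpIB2 against 217 ± 12.8 CPM in SpIB1, and CDC4 469.8 ± 174 CPM in SpIB2 against 164 ± 10.3 CPM in SpIB1 (SD, n = 3 each; edgeR adjusted p = 0.00025, 0.0011 and 0.00067). With library totals 3 were higher and 2 lower. Between the days 4 of 6 rose in SpIB2, against 22.2% of all symbols tested, and with library totals 1 rose and 1 fell.

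Of 7 cohesin and securin symbols, 6 were lower in SpIB2 on day 5, against 26.7% of all symbols tested, with a median of -1.43. PDS1, the securin, stood at 5.79 ± 1.16 CPM in SpIB2 against 24.3 ± 3.46 CPM in SpIB1, and ESP1, the separase, at 14.5 ± 6.40 CPM in SpIB2 against 55.0 ± 2.16 CPM in SpIB1 (edgeR adjusted p = 0.00019 and 0.00022). Of 6 other B-type cyclins and regulators of mitotic entry, 4 were lower in SpIB2 on day 5, against the same 26.7%. Among them was CLB4, a B-type cyclin (7.08 ± 2.91 CPM in SpIB2 against 21.4 ± 1.68 CPM in SpIB1, edgeR adjusted p = 0.00090). Of 22 symbols of the anaphase-promoting complex and the mitotic exit network, 5 were higher and 9 lower in SpIB2 on day 5. The shares of all symbols tested were 28.4% and 26.7%. With library totals 0 of the 22 were higher. In SpIB2 5 rose and 8 fell between the days, against 22.2% and 24.5% of all symbols tested. CDH1, the activator that directs Clb2 to destruction, averaged 132.6 ± 53.4 CPM in SpIB2 on day 5 and 52.1 ± 7.39 CPM in SpIB2 on day 2 (edgeR adjusted p = 0.0016).

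**Figure D5:**
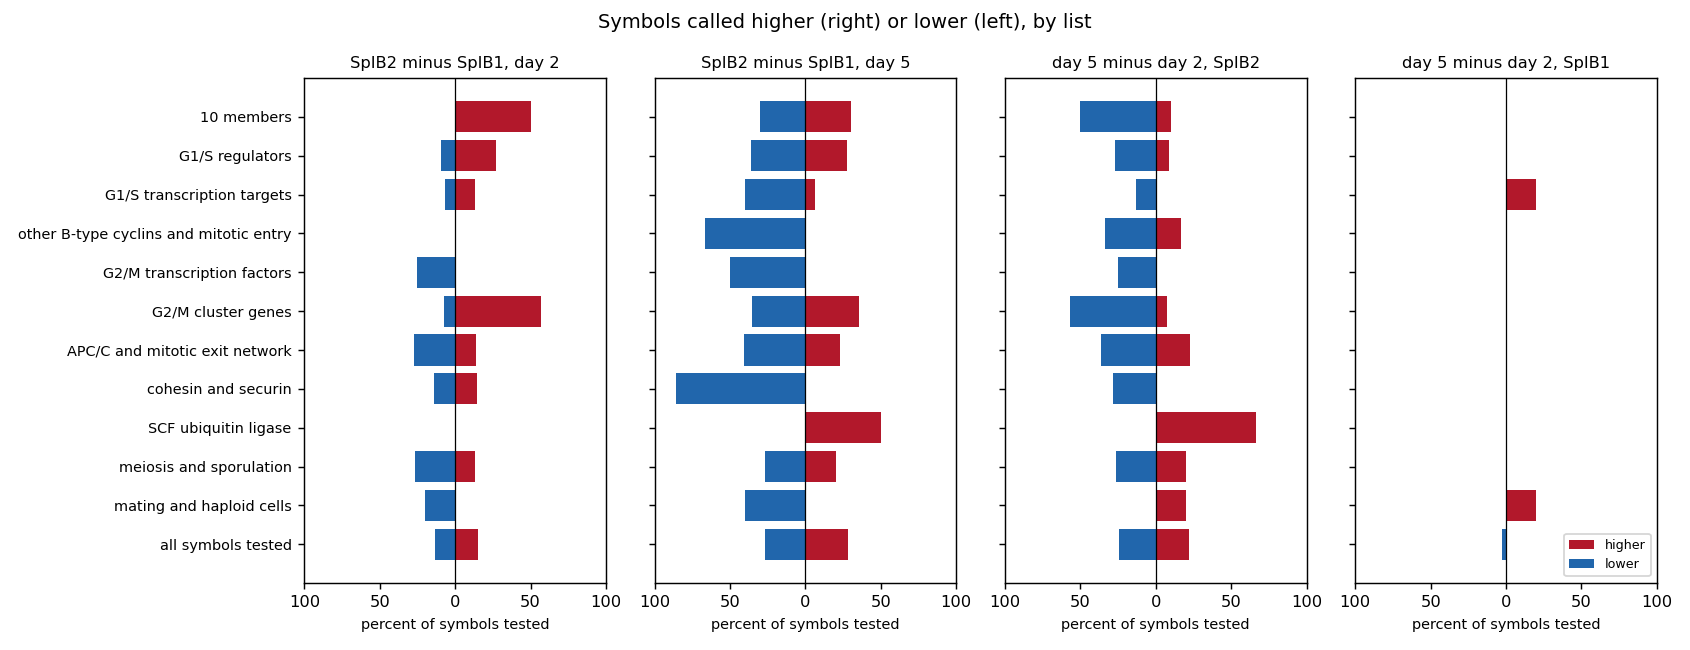
Percent of the symbols of each list called higher (red, right) or lower (blue, left) in 4 comparisons, with the 10 symbols described at the top and all 6197 symbols tested at the bottom. In the G2/M cluster 8 of 14 are higher in SpIB2 on day 2 and 8 of 14 fall between the days in SpIB2, and the bars in the SpIB1 panel are short or absent.

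Markers of meiosis and sporulation, a state that diploid yeast can enter on starvation, were counted too. Of 15 symbols, 3 were higher and 4 lower in SpIB2 on day 5, against 28.4% and 26.7% of all symbols tested. All 15 had reads in all 12 libraries. IME2, a meiotic kinase, averaged 245 ± 108 CPM in SpIB2 on day 5 and 16.0 ± 1.60 CPM in SpIB1 on day 5, and SPO11, which cuts DNA for meiotic recombination, averaged 101 ± 50.8 CPM in SpIB2 against 4.91 ± 1.26 CPM in SpIB1 (SD, n = 3 each; edgeR adjusted p = 3.8e-06 and 5.3e-06). IME1, which switches the programme on and is named here after its values were seen, was lower, with 1 to 5 reads a library in SpIB2 and 18 to 31 in SpIB1 on day 5 (edgeR adjusted p = 0.021). The list summed to 358 to 610 CPM in SpIB2 on day 5, 216 to 282 in SpIB2 on day 2, 198 to 227 in SpIB1 on day 5 and 238 to 259 in SpIB1 on day 2. Without IME2 and SPO11, the other 13 markers summed to 107 to 182 CPM in SpIB2 on day 5, 186 to 262 in SpIB2 on day 2, 178 to 205 in SpIB1 on day 5 and 215 to 225 in SpIB1 on day 2. Their part in the day 5 values of CLN3, SIC1 and the mitotic genes was not tested. A separate check, not made on these markers, left out both SpIB2 libraries that stood apart in correlation. The strain differences on day 5 then passed for CLN3 (-1.95), SIC1 (0.73), CLB2 (1.09) and SWI5 (1.91). They did not for CLN2 (-0.75, adjusted p = 0.072) and CLB5 (-0.66, adjusted p = 0.054). Of 10 mating symbols, 5 were in the tables, and they summed to 29.8 to 57.4 CPM over all groups.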

How the data were processed

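Poly-A RNA from 12 libraries (2 strains, 2 days, 3 libraries per group) had been sequenced, and the authors deposited whole-number read counts per gene copy for each library. The submitters' processing notes list edgeR 3.34.0, HTSeq 0.11.1, STAR 2.7.3a and Trimmomatic 0.38, with no role or order. Neither build, annotation, strand setting nor the handling of multi-mapping reads is stated (not given in the sources used here), so reads may be split between near-identical copies or overlapping genes. Of 11312 copies, 35 had 1 count that could not be read as a number, none in the genes described, and were dropped, which left 11277.

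Copies were summed per symbol. Rows that passed edgeR's filterByExpr (10659 copies, 6197 symbols) were scaled by TMM and tested with edgeR 4.0.16 (glmQLFit and glmQLFTest, limma 3.58.1, R 4.3.3) in 1 fit of the 4 groups with 8 residual degrees of freedom and no covariate. P-values were adjusted by Benjamini-Hochberg over all rows, with a threshold of 0.05. The share of a symbol's reads in its first copy was tested by exact two-sided permutation of strain within day. The plan adjusted it over the 9 symbols with several copies. The adjustment printed, over the 4134 symbols with at least 10 reads in every library, was chosen after the values were seen.

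The 10 genes and the lists were chosen with earlier results of these data known. All 10 symbols are named, and all 22 copies entered the counts. The copies CLB5_2, CLB6_1 and CLB6_2 are not described singly and passed no test in the fit of all 12 libraries. From each list and comparison, up to 3 called symbols with the largest log2 fold change and no overlap of libraries could be named. One list of the plan is not reported here. Likeness was Pearson's r of log2 CPM (prior count 2). Alternatives were DESeq2 1.42.0, other scalings and filters, a block for the replicate number, fits of only the 6 libraries compared, the unreadable counts put back, and leaving out libraries. Leaving out both SpIB2 libraries that stood apart was chosen from an earlier analysis of these data, and for the copy share after seeing them, as were the alternatives for the lists.

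A floor of 3 reads was worth 0.379 to 0.584 CPM when scaled by library totals, and covers counting error only. This range is not on the TMM scale of the CPM values printed above and cannot be set against them. On the TMM scale, the 2 reads of CDC5_1 in SpIB2 day 5 replicate 1 were 0.687 CPM. On simulated data the symbol test recovered 93 to 97% of 4-fold changes and 31 to 36% of 2-fold changes for the strain differences and day effects, and 58% and 3% for the difference of the day effects. Of the symbols called, 3.03 to 8.03% were false for the strain differences and day effects and 10.3% for the difference of the day effects, at a threshold of 5%. The simulation changed 100 symbols by each fold, up and down in equal numbers, in 1 group of an otherwise common profile. In the data more symbols were called, up to 55.1%, so these rates need not hold there.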

Additional observations from a re-analysis of the deposited data

Results flagged for a closer look

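These results were picked out because the change between day 5 and day 2 differed between the strains in a test of that difference (edgeR quasi-likelihood, adjusted p under 0.05). They were 3 of 10 symbols, against 28.2% of all symbols tested, and 5 of 22 copies, against 26.4%. The 10 genes were thus close to the rest in this test. Values are the day effect in SpIB2 minus the day effect in SpIB1 on the log2 scale. Summed over copies, CDC5 differed by -1.73 (adjusted p = 0.016), CLN2 by -1.23 (adjusted p = 0.047) and SIC1 by 1.01 (adjusted p = 0.027). By copy, CDC5_1 differed by -2.38 (adjusted p = 0.015), CDC5_3 by -1.79 (adjusted p = 0.021), CLN3_1 by -1.35 (adjusted p = 0.033), SIC1_1 by 1.15 (adjusted p = 0.032) and SIC1_2 by 1.03 (adjusted p = 0.032). CLN2, a single copy, did not pass in the test over copies (-1.16, adjusted p = 0.059).

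CDC5 and its copies fell between the days in SpIB2 and did not pass in SpIB1. With library totals neither SIC1 summed nor its copies passed (0.35, adjusted p = 0.44; SIC1_1 0.39, 0.42; SIC1_2 0.32, 0.55). Over 20 alternatives each, the call was lost in 10 for SIC1_1, in 9 for SIC1_2, in 8 for CLN3_1 and in 2 for CDC5_3. The calls of CLN3_1, SIC1_1 and SIC1_2 ended with any 1 of these left out: SpIB2 day 5 replicate 3, SpIB1 day 5 replicates 1 and 2, and SpIB1 day 2 replicates 2 and 3. Single libraries that also did so were SpIB1 day 5 replicate 3 and SpIB2 day 2 replicate 3 for CLN3_1, SpIB2 day 2 replicate 1 and SpIB2 day 5 replicate 1 for SIC1_1, and SpIB1 day 2 replicate 1 and SpIB2 day 2 replicates 1 and 2 for SIC1_2. For CDC5_3 they were SpIB1 day 2 replicate 3 and SpIB1 day 5 replicate 1. Adjusted p-values in these fits ran up to 0.089 for CLN3_1, 0.095 for SIC1_1, 0.094 for SIC1_2 and 0.056 for CDC5_3. CDC5_1 rests on 2 to 4 reads in each SpIB2 library of day 5.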

How the results depend on the processing

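Counts of the 10 symbols and 22 copies called changed as follows. Between the days in SpIB1, 1 copy was called, against 2 with library totals, 2 with no filter, 5 with DESeq2, 5 with only the 6 libraries compared, 4 without both SpIB2 libraries that stood apart and 0 to 3 with 1 library left out. For symbols there, the count was 0, against 1 with DESeq2, 3 with only the 6 libraries, 2 without both and 0 to 1 with 1 left out. For the difference of the day effects, 5 copies were called, against 11 with library totals, 10 with DESeq2, 8 without both and 1 to 5 with 1 left out, and 3 symbols, against 5 with library totals, 5 without both and 1 to 4 with 1 left out. On day 2, 11 copies were called between the strains, against 7 at a mean count of at least 50. Between the days in SpIB2, 14 copies were called, against 9 to 14 with 1 left out. By direction, library totals gave 1 copy higher and 10 lower between the strains on day 5, against 7 and 4, 0 higher and 11 lower for the day effect in SpIB2, against 3 and 11, and 0 and 11 for the difference of the day effects, against 2 and 3. The copy share under the planned adjustment passed for 5 symbols, against 2 to 7 with 1 left out.

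Values that changed sign were uncalled under every setting named here, and the cause was not tested. With library totals, the day effect of CLB5 in SpIB2 was -0.29, and those of CLB1, CLB2 and SIC1 in SpIB1 were 0.20, 0.12 and 0.25. CLB5 in SpIB2 was -0.0014 with no filter, and SIC1 in SpIB1 was 0.0041 with only 6 libraries and 0.0091 without both. With 1 library left out, the strain difference on day 2 ran from -0.34 to 0.15 for CLB5 and -0.18 to 0.79 for CLB6. The day effect in SpIB2 then ran from -0.24 to 0.27 for CLB5 and -0.83 to 0.15 for CLB6. In SpIB1 it ran from -0.45 to 0.23 for CLB1, -0.34 to 0.15 for CLB2 and -0.096 to 0.17 for SIC1.

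With the replicate number as a block, copies called fell to 0 for the day effect in SpIB1 and to 3 for the difference of the day effects, and CLN2 lost both calls (-0.77, adjusted p = 0.080, and -1.23, adjusted p = 0.087). In their deviations from group means, same-numbered libraries correlated at a median of -0.13 over 18 pairs (-0.57 to 0.48). Of the 12 libraries, 2 correlated best with their own number. No pairing by number was seen, but with 3 libraries per group this check cannot exclude one.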
